A study of Mus musculus with 16 samples.

Results

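The genes described here encode 9 enzymes and enzyme subunits of the tricarboxylic acid (TCA) cycle. They were chosen by gene symbol as Cs, Idh3a, Idh3b, Idh3g, Ogdh, Sucla2, Suclg1, Fh1 and Mdh2 and are 9 of the 23970 gene symbols in the table. All 9 passed the filter on low values (0.5 FPKM or more on average over all libraries), as did 11256 symbols in all. RNA-seq was performed on quadriceps from 16 male C57BL/6NTac mice aged 16 weeks, in 4 groups of 4 muscles. Mice had been given a control diet (CON, 10% of kcal from fat) or a high-fat diet (HFD, 60% of kcal from fat) for 10 weeks. The CON-post and HFD-post muscles were taken 3 h after a single treadmill run to exhaustion, and the CON-pre and HFD-pre muscles came from other mice at rest, so a difference between pre and post is between animals. All mice were acclimatized to the treadmill and fasted for 3 h, and the labels name no genetic modification. Exercised mice had water but were not fed between the run and sampling. The study's methods give the resting mice the fasting period of the exercised mice, but do not say whether this covered the 3 h after the run as well as the 3 h before it. Expression is given as FPKM (fragments per kilobase, relative to all mapped fragments of the library), a level per transcript length, so levels of different genes can be set side by side.

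The TCA cycle takes place in the mitochondrial matrix, where acetyl-CoA made from glucose or fatty acids is oxidized to carbon dioxide and the electrons are passed to the respiratory chain. Citrate synthase (Cs) joins acetyl-CoA to oxaloacetate and is widely used as a marker of mitochondrial content in muscle. Isocitrate dehydrogenase 3, built of alpha (Idh3a), beta (Idh3b) and gamma (Idh3g) subunits, makes 2-oxoglutarate, which the complex containing oxoglutarate dehydrogenase (Ogdh) turns into succinyl-CoA. Succinyl-CoA synthetase, with its alpha subunit (Suclg1) and ADP-specific beta subunit (Sucla2), makes succinate, and after the succinate dehydrogenase step fumarase (Fh1) and mitochondrial malate dehydrogenase (Mdh2) restore oxaloacetate. Oxidative muscle fibres contain more of these enzymes than glycolytic fibres.

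The promoters of the members with the highest levels (Mdh2 and Cs) and of the member with the lowest level (Fh1) are shown because the members varied together over libraries, as described further on. Each line holds the 200 bases before the transcript start in the gene's own direction, from RefSeq (GRCm38.p6), and capitals mark a CCAAT box (CCAAT), a GC box (GGGCGG) or a cAMP response element (TGACGTCA) on either strand.
Mdh2, chr5:135778449-135778648, plus strand: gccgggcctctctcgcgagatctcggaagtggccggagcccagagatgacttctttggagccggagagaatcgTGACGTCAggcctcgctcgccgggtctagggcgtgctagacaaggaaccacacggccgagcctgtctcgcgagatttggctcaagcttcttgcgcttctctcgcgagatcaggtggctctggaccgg
Cs, chr10:128337527-128337726, plus strand: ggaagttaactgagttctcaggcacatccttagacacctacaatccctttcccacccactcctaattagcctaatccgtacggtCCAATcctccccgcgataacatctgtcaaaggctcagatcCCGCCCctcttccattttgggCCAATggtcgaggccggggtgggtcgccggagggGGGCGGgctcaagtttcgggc
Fh1, chr1:175625636-175625835, minus strand: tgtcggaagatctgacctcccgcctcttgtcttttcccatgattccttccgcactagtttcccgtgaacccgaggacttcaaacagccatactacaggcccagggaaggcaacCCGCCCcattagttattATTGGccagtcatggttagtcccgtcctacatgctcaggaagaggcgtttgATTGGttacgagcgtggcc

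RefSeq promoter windows were matched for 8 of the 9 members, and Idh3a was not matched. Over the 250 bases before the start, on both strands, a CCAAT box was found in 4 members (Cs, Idh3b, Ogdh and Fh1) and in 37.5% of 27025 genes with a window. A gene was counted once if any of its windows held the motif, and Ogdh had 6 windows, some of them overlapping, where the other 7 members had 1 each. A GC box was found in 5 members (Cs, Ogdh, Sucla2, Fh1 and Mdh2) and in 35.4% of all genes, and a cAMP response element in Mdh2, in 3 overlapping windows of Ogdh and in 1.77% of all genes. An ETS site (CCGGAAG) was found in Idh3g and in 7.83% of all genes. The letters of an ERR response element (TNAAGGTCA, 1.30% of all genes), an NRF1 site (its palindromic consensus, 2.23%) and a TATA box (TATAAA, 14.3%) were not in the windows of any of the 8 members. These are matches of letters only and were not tested as binding sites.

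Libraries summed to between 283575 and 329282 FPKM, and values of low genes gave a depth of 0.707 to 1.11 relative to CON-pre replicate 1. The log2 values of any pair of libraries correlated with a Pearson r between 0.966 and 0.984. The summed level of 8 skeletal muscle markers (Ckm, Acta1, Myh4, Myh1, Myh2, Tnnt3, Pvalb and Atp2a1) was between 53461 and 71195 FPKM, in keeping with the labelled tissue. Of 3 heart markers, Nppa and Nppb were listed at 0 in every library and Myh6 was between 0.643 and 3.41 FPKM, and the sum of the brown adipocyte markers Ucp1 and Cidea was at most 3.29 FPKM. The sum of 8 slow-fibre markers ranged widely within each group, from 199 to 695 FPKM in CON-pre, from 188 to 503 FPKM in HFD-pre, from 179 to 687 FPKM in CON-post and from 182 to 731 FPKM in HFD-post. In bulk muscle, fewer cells of a type and less RNA per cell cannot be told apart.

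Together the 9 members made up 0.494 to 0.652% of a library's FPKM. Mdh2 was the most abundant, with a mean of 393 FPKM over the 16 libraries, followed by Cs (mean 241 FPKM) and Idh3a (mean 199.9 FPKM). These 3 genes kept that order in 16 of 16 libraries, and Idh3a was above Sucla2 in 16 of 16. Sucla2 (mean 179 FPKM) and Idh3b (mean 178 FPKM) did not differ beyond their spread, with Sucla2 the higher in 11 of 16 libraries. Idh3b was above Idh3g (mean 155 FPKM) in 16 of 16 libraries, Idh3g above Suclg1 (mean 137 FPKM) in 15, Suclg1 above Ogdh (mean 119 FPKM) in 14, and Ogdh above Fh1 (mean 98.4 FPKM) in 15.

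Each member was steady from muscle to muscle. The highest library was between 1.196 times (Idh3b) and 1.385 times (Suclg1) the lowest, and the coefficient of variation over the 16 libraries was between 5.02% (Idh3b) and 8.65% (Suclg1). The within-group SD of log2 values had a median of 0.0879 over the members, against 0.126 over the 253 genes whose mean FPKM lay between the lowest and the highest member and 0.176 over all genes tested. The standard error of a log2 fold change between a pair of groups was between 0.057 and 0.085. It came from the limma variance, which is drawn toward the trend over all genes.

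The members that the comparisons turn on are given library by library with each comparison, and the remaining ones are summarized here. Idh3b was 169 ± 6.30 FPKM in CON-pre, 180.1 ± 13.6 FPKM in HFD-pre, 179 ± 4.64 FPKM in CON-post and 183 ± 2.99 FPKM in HFD-post (SD, n = 4 each). Sucla2 was 172 ± 10.5, 182 ± 14.5, 177 ± 14.3 and 185 ± 11.3 FPKM in the same order, and Suclg1 before exercise was 129, 114, 139.9 and 139 FPKM in CON-pre and 143, 122, 134 and 157 FPKM in HFD-pre. For these 3 genes the ranges of the pre-exercise groups overlapped. After exercise Idh3a was 211, 191, 206 and 174 FPKM in CON-post and 216, 197, 203 and 195 FPKM in HFD-post. Idh3g was 153, 143, 143 and 152 FPKM in CON-post and 172, 152, 156 and 153 FPKM in HFD-post, and Mdh2 was 364, 389, 425 and 389 FPKM in CON-post and 412, 396, 376 and 416 FPKM in HFD-post. The diets overlapped after exercise for each of these as well.

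**Figure D1:**
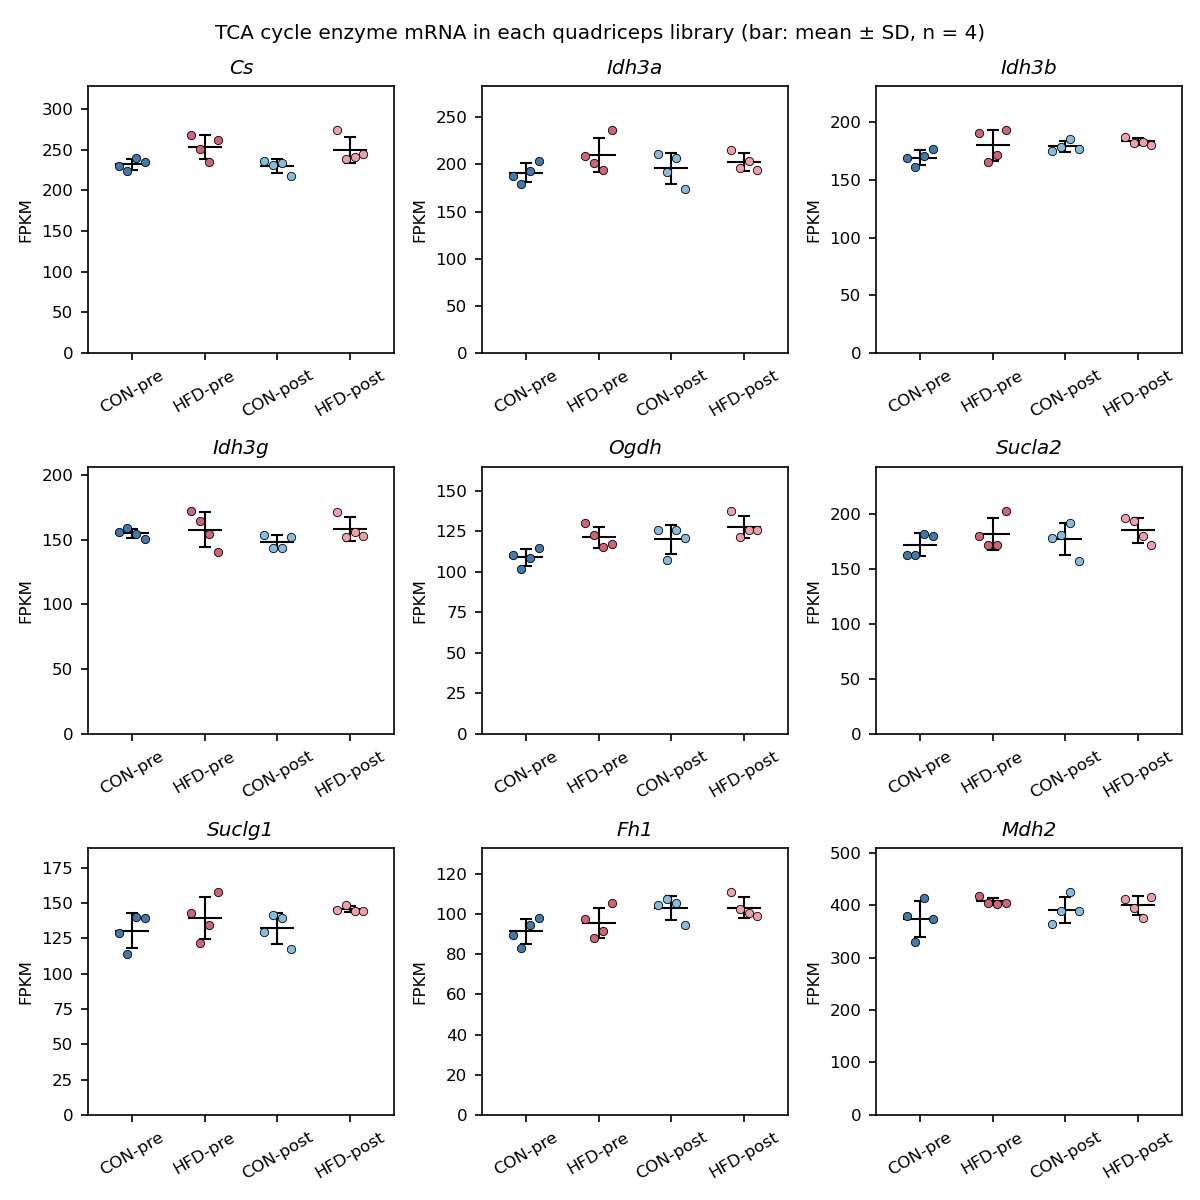
FPKM of each of the 9 TCA cycle genes (vertical axis, starting at 0) in each quadriceps library, with 4 libraries per group. Points are libraries, and the bars give the group mean and SD. The 4 groups lie close together for every gene, with the highest library at most 1.385 times the lowest.

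The first comparison asked how 10 weeks of HFD had changed the cycle genes in resting muscle. The fitted level of 9 of 9 members was higher with HFD at rest, by between 0.023 (Idh3g) and 0.15 (Ogdh) on the log2 scale, but none passed the test. In limma, 0 of 9 were called at an adjusted p under 0.05, where 0.346% of all genes tested were called. An unadjusted p under 0.05 was reached by Cs and Ogdh, where 8.25% of all genes reached it. That count of 2 depended on the settings. It was 4 after median-of-ratios scaling, 3 after upper-quartile scaling or quantile normalization, 1 with only the groups compared or with the replicate block and 0 without a variance trend. With 1 library left out it was between 0 and 3, with 3 without HFD-pre replicate 3 and 0 without CON-pre replicate 2, HFD-pre replicate 1 or HFD-pre replicate 2.

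Ogdh, the substrate-binding component of the oxoglutarate dehydrogenase complex, showed the greatest difference. Its level was 110.5, 101.9, 108.6 and 114.5 FPKM in the CON-pre libraries and 129.9, 122.7, 115.1 and 117.2 FPKM in the HFD-pre libraries. All 4 HFD-pre values were above all 4 CON-pre values, which was so for 1.68% of all genes tested, and Ogdh was the 1 member of 9 without overlap. The log2 fold change was 0.15 (SE 0.066, 95% interval 0.013 to 0.29, limma adjusted p = 0.543).

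Cs was 229.7, 224, 239.8 and 234 FPKM in CON-pre and 268, 251, 235 and 261 FPKM in HFD-pre. The lowest HFD-pre library lay inside the CON-pre range and the other 3 lay above it. The log2 fold change was 0.13 (SE 0.060, limma adjusted p = 0.596), or 9.33% (95% interval 0.110 to 19.4%). On the deposited scale the 95% intervals of the 9 members, each taken alone, reached from -7.60% (Idh3g) to 22.6% (Idh3a and Ogdh).

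Of the subunits, Idh3a was 188, 179, 193 and 204 FPKM in CON-pre and 209, 202, 194 and 236 FPKM in HFD-pre, and Idh3g was 156, 159, 154 and 150.5 FPKM in CON-pre and 172, 165, 154 and 140.4 FPKM in HFD-pre. HFD-pre replicate 4 held the highest Idh3a and the lowest Idh3g of all 16 libraries. Mdh2, which closes the cycle, was 379, 330.2, 413 and 374 FPKM in CON-pre and 417, 405, 403 and 405 FPKM in HFD-pre, so the HFD-pre libraries lay within the upper part of the wider CON-pre range or just above it. Without HFD-pre replicate 1 the log2 fold change of Idh3g was -0.019 in place of 0.023.

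The median log2 fold change of the 9 members was 0.092, against -0.034 over all genes tested, of which 39.6% were higher in HFD-pre. The members varied together over libraries, so their signs are not independent observations, and no test was made of the count. The summed FPKM of the 9 genes was 1624 ± 80.4 (SD, n = 4) in CON-pre and 1747 ± 76.3 (SD, n = 4) in HFD-pre. In the same libraries the sum of the 8 skeletal muscle markers, which are among the most abundant transcripts, was 65717 to 71195 FPKM in CON-pre and 58935 to 63413 FPKM in HFD-pre without overlap. Of these 8 genes 6 had a lower mean in HFD-pre, while Myh2, a myosin of oxidative fast fibres, had a mean of 254 FPKM in CON-pre and 345 FPKM in HFD-pre and Myh1 of 542 and 592 FPKM, both with overlapping ranges. The total FPKM was 305490 to 327559 in CON-pre and 294867 to 303652 in HFD-pre. Their part in the result was not tested. The median of the members was 0.10 after quantile normalization, 0.12 after upper-quartile scaling and 0.14 after median-of-ratios scaling, with 9 of 9 higher under each.

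After exercise, the diets were compared in HFD-post against CON-post. The differences were small, from 0.0013 (Fh1) to 0.15 (Suclg1) on the log2 scale, and again 0 of 9 members were called in limma, where 0.151% of all genes tested were called. An unadjusted p under 0.05 was reached by 0 of 9 members and by 6.29% of all genes. Suclg1 was 129, 142, 139 and 117 FPKM in CON-post and 145, 149, 144 and 145 FPKM in HFD-post. Cs was 236, 231, 234 and 218 FPKM in CON-post and 274, 239, 241 and 245 FPKM in HFD-post. These 2 of 9 members were higher without overlap, which was so for 1.88% of all genes tested. Their adjusted p was 0.907 (Suclg1, log2 fold change 0.15, SE 0.085) and 0.846 (Cs, log2 fold change 0.12, SE 0.060).

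The other members overlapped between HFD-post and CON-post. All 9 fitted differences were above 0, with a median of 0.067, where 51.2% of all genes were above 0 with a median of 0.0038. The median of the members was 0.029 when CON-post replicate 4 was left out, 0.039 when HFD-post replicate 1 was, and 0.043 when CON-post replicate 2 was. The count of 9 above 0 rested on small values, since Idh3a and Fh1 went below 0 without CON-post replicate 4 (-0.0026 and -0.040), Fh1 without HFD-post replicate 1 (-0.033), Mdh2 without CON-post replicate 1 (-0.0042), and Fh1 also after upper-quartile (-0.011) and median-of-ratios scaling (-0.0030). The summed FPKM of the 9 genes was 1677 ± 63.8 (SD, n = 4) in CON-post and 1756 ± 63.4 (SD, n = 4) in HFD-post. The sum of the skeletal muscle markers was 58792 to 68245 FPKM in CON-post and 53461 to 62620 FPKM in HFD-post. In that list Myh2 had the higher mean with HFD (330.4 FPKM in CON-post and 404 FPKM in HFD-post, with overlapping ranges) and the other 7 genes the lower. The part of these genes in the result was not tested.

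With the diets compared over all 16 libraries, 8 against 8, the intervals narrowed. The log2 fold change was between 0.033 (Fh1) and 0.12 (Cs, Ogdh and Suclg1) and had a median of 0.079, where all genes had a median of -0.017 and 43.4% of them were higher with HFD. The members called were 0 of 9, where 0.959% of all genes tested were called. Cs had a log2 fold change of 0.12 (SE 0.042, adjusted p = 0.251) and Ogdh of 0.12 (SE 0.047, adjusted p = 0.331), and these were the 2 of 9 members with an unadjusted p under 0.05, which 10.4% of all genes reached. The count was 4 after quantile normalization or without CON-pre replicate 3, and between 2 and 3 under the remaining alternatives. The 95% intervals of the members reached from -4.98% to 18.7%. All 225 values of the 9 members under the alternative settings kept the higher sign for HFD, and 0 of them were called, with adjusted p between 0.199 and 0.969.

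**Figure D2:**
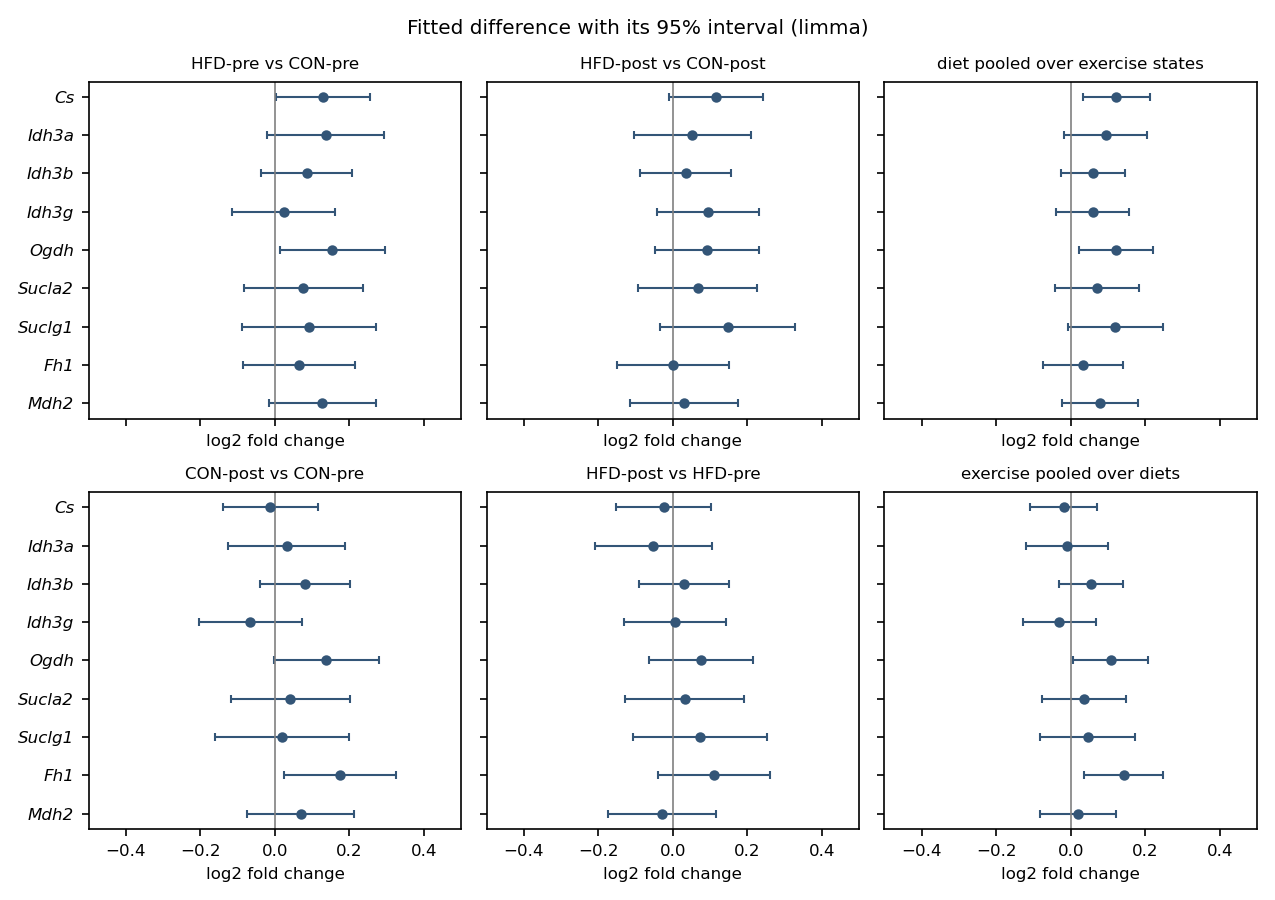
Log2 fold change of each member (point) with its 95% interval from limma (line), in 6 comparisons. In the upper row (HFD against CON) the points lie between 0.0013 and 0.15, and in the lower row (post against pre exercise) between -0.066 and 0.17.

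The next comparison asked which of these genes differed 3 h after maximal exercise. In CON mice the members called were 0 of 9, where 1.11% of all genes tested were called in CON-post against CON-pre. Fh1, the fumarase gene, was the 1 member with an unadjusted p under 0.05, which 11.1% of all genes reached. The count was 0 after upper-quartile scaling or quantile normalization and when CON-pre replicate 1, CON-pre replicate 2, replicate 1 of CON-post or replicate 3 of CON-post was left out, and 1 or 2 under the remaining alternatives. Fh1 was 89.8, 83.4, 94.6 and 98.1 FPKM in CON-pre and 105, 108, 106 and 94.6 FPKM in CON-post. The first 3 CON-post libraries were above every CON-pre library and replicate 4 was not. The log2 fold change was 0.17 (SE 0.071, limma adjusted p = 0.359).

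Ogdh was 126, 107, 126 and 121 FPKM in CON-post, with replicate 2 inside the CON-pre range, and its log2 fold change was 0.14 (SE 0.066, adjusted p = 0.460). For the other 7 members the log2 fold change was between -0.066 (Idh3g) and 0.081 (Idh3b), and Cs was near 0 (-0.012, SE 0.060). Over the 9 members 7 were higher, with a median of 0.041, where 48.3% of all genes were higher. This count depended on how libraries were scaled, with 7 of 9 higher after median-of-ratios scaling (median 0.049), 6 of 9 after upper-quartile scaling (median 0.013) and 4 of 9 after quantile normalization (median -0.024). The median also moved with single libraries. It was 0.024, 0.010, 0.068 and 0.065 without CON-pre replicates 1, 2, 3 and 4 in turn, 0.0053 without CON-post replicate 3 and 0.086 without CON-post replicate 4. The 95% intervals reached from -13.1% (Idh3g) to 25.2% (Fh1). This comparison and HFD-pre against CON-pre share the CON-pre libraries.

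In HFD mice, 0 of 9 members were called in HFD-post against HFD-pre, where 0.542% of all genes tested were called, and 0 of 9 reached an unadjusted p under 0.05, which 11.7% of all genes reached. The latter count was 1 after quantile normalization or without HFD-pre replicate 4. Fh1 was 97.5, 88.2, 91.7 and 105 FPKM in HFD-pre and 111, 102, 101 and 99.2 FPKM in HFD-post. Its groups overlapped by 1 library, HFD-pre replicate 4, and the log2 fold change was 0.11 (SE 0.071, adjusted p = 0.576). Ogdh was 137, 122, 126 and 126 FPKM in HFD-post (log2 fold change 0.076, SE 0.066, adjusted p = 0.705). The other members were between -0.053 (Idh3a) and 0.074 (Suclg1). The signs depended on how libraries were scaled, with 6 of 9 higher on the deposited scale, 3 of 9 after upper-quartile or median-of-ratios scaling and 2 of 9 after quantile normalization, while 59.3% of all genes were higher on the deposited scale.

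Pooled over diets, post against pre exercise gave 0 of 9 members called, where 3.86% of all genes tested were called. Fh1 had a log2 fold change of 0.14 (SE 0.050, adjusted p = 0.137), or 10.4% in the fitted level (95% interval 2.53 to 18.8%). Ogdh had a log2 fold change of 0.11 (SE 0.047, adjusted p = 0.234). These were the 2 of 9 members with an unadjusted p under 0.05, which 18.5% of all genes reached, and the count was 0 after upper-quartile scaling, 1 after quantile normalization, median-of-ratios scaling or without a variance trend, and between 1 and 2 without 1 library. The remaining 7 lay between -0.030 (Idh3g) and 0.055 (Idh3b). On the deposited scale 6 of 9 members were above 0 with a median of 0.036, as were 53.7% of all genes with a median of 0.014, but the members above 0 were 4 of 9 after upper-quartile scaling and 3 of 9 after quantile normalization. Without 1 library the median was between 0.014 (CON-pre replicate 2) and 0.063 (HFD-pre replicate 4), and it also moved by over 1.5 times without CON-pre replicate 1, HFD-pre replicates 2 or 3, CON-post replicates 3 or 4, or HFD-post replicate 1. Over the alternative settings the lowest adjusted p of any member was 0.0674.

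Whether exercise acted differently in the 2 diets was tested as an interaction. For the members 0 of 9 were called in limma, where 0.0% of all genes tested were called, and 0 of 9 reached an unadjusted p under 0.05, which 3.16% of all genes (356 genes) reached. The interaction was between -0.098 (Mdh2) and 0.071 (Idh3g) on the log2 scale, with SE of 0.081 to 0.12, and 2 of 9 members were above 0, where 60.3% of all genes were. The 95% intervals reached from -19.2% to 24.0%, and the interval of each of the 9 members included 0.

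Subunits of 1 enzyme were compared within each library, since a ratio does not depend on the scaling of the library. Idh3a was 1.12 ± 0.0600 times Idh3b (SD, n = 16) and 1.30 ± 0.130 times Idh3g, and Idh3b was 1.15 ± 0.0953 times Idh3g. The ratio of Sucla2 to Suclg1 was 1.31 ± 0.0643. In 16 exact two-sided permutation tests of these ratios between groups, 4 libraries against 4, the lowest p was 0.0857 (Idh3b to Idh3g, CON-post against CON-pre, Benjamini-Hochberg adjusted p = 0.762), and the design cannot go below 0.0286. The mean Idh3b to Idh3g ratio was 1.09 in CON-pre and 1.21 in CON-post. In HFD-pre replicate 4 the Idh3a to Idh3g ratio was 1.68, and in the other HFD-pre libraries it was between 1.22 and 1.26.

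Over the 16 libraries the members varied together. The 36 pairs of members had a median Pearson r of 0.55 (range -0.29 to 0.84) and a median Spearman rho of 0.51 on log2 values, with a median r of 0.45 after the group means were removed. Pairs of the 253 genes in the same range of mean FPKM had a median r of 0.065. The points of each correlation share libraries and their scaling, so these values are a description without a test. The median over the 36 pairs was 0.45 when the 2 libraries farthest from the median of the first gene were left out of each pair.

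Sucla2 and Suclg1, the beta and alpha subunits of succinyl-CoA synthetase, had the highest r (0.84), followed by Idh3a with Sucla2 (0.83) and Idh3b with Fh1 (0.81). The exception was Idh3g, the regulatory gamma subunit of isocitrate dehydrogenase 3. All 28 pairs without Idh3g were above 0 (0.36 to 0.84, median 0.60), while 5 of the 8 pairs with Idh3g were below 0 (median -0.095), among them those with its partner subunits Idh3a (-0.052) and Idh3b (-0.14). Idh3g had its highest r with Cs (0.46). The low values of Idh3g rested in part on 1 library, since its median r was 0.076 without HFD-pre replicate 4.

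**Figure D3:**
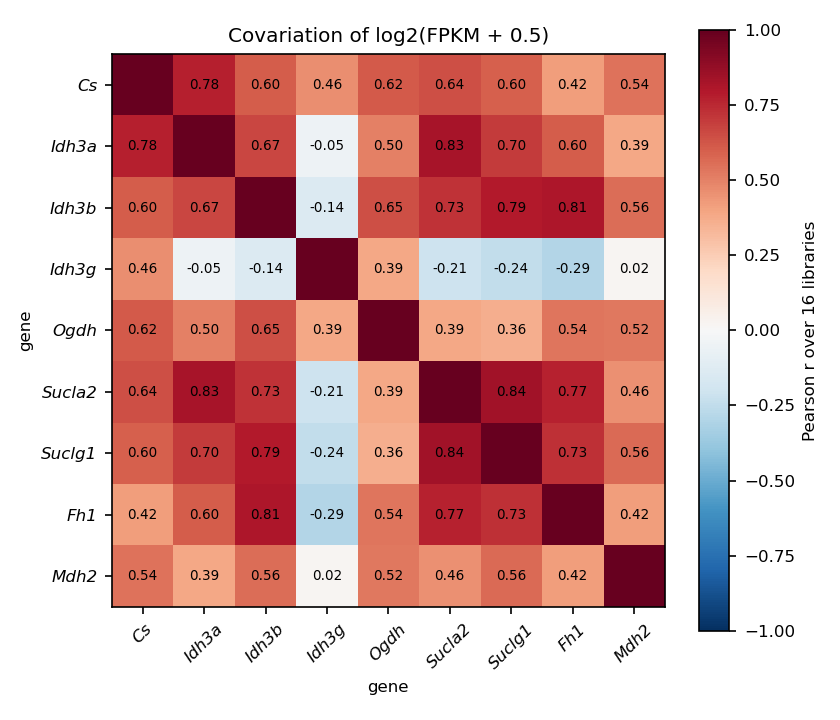
Pearson r between each pair of the 9 members over 16 libraries, on log2(FPKM + 0.5), with the gene on both axes and r as colour and number. The row of Idh3g holds the 5 values below 0, and every pair without Idh3g is above 0.

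The mean of the members' centred log2 values was lowest in CON-pre replicate 2 (-0.16) and highest in HFD-post replicate 1 (0.13). Among 5261 other genes averaging 5 FPKM or more, the 5 whose log2 values followed this mean most closely over the 16 libraries were Mb (Pearson r 0.93, Spearman rho 0.95), Etfb (r 0.90), Dlst (r 0.89), Acaa2 (r 0.88) and Fabp3 (r 0.88). Mb encodes myoglobin, Etfb a subunit of the flavoprotein that takes electrons from fatty acid oxidation, Dlst the succinyltransferase component of the oxoglutarate dehydrogenase complex, Acaa2 the mitochondrial thiolase and Fabp3 the fatty acid binding protein of muscle. Of other genes around the cycle, chosen after their values were seen, cytosolic malate dehydrogenase (Mdh1, r 0.86), the oxoglutarate carrier Slc25a11 (r 0.85) and the pyruvate dehydrogenase component Dlat (r 0.84) ranked 9, 12 and 15, and pyruvate carboxylase (Pcx) ran the other way (r -0.62). Others around the cycle followed the mean less closely. Among these were Idh2 (r 0.47), Pdha1 (r 0.39), Sdhb (r 0.34), Got2 (r 0.18) and Slc25a12 (r -0.012).

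A second list held 31 further genes of the cycle, of the reactions that feed or drain it, of the carriers of its intermediates and of the cytosolic counterparts, and 30 of them were tested (Slc25a13 was not). Some of these were called, and the difference between this list and the 9 members was not tested. The list was chosen with earlier results of these data known. The shares of all genes given beside its counts are therefore a description and no test of the list. With HFD, 3 genes that replenish the cycle or carry and use citrate outside it were lower. In HFD-pre against CON-pre 0 of 30 rose and 1 of 30 fell, where 0.346% of all genes tested were called. In diet pooled over exercise states 0 of 30 rose and 3 of 30 fell, where 0.959% of all genes were called. In HFD-post against CON-post 0 of 30 were called, where 0.151% of all genes were, and 2 of 30 reached an unadjusted p under 0.05, which 6.29% of all genes reached.

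Pcx, which makes oxaloacetate from pyruvate and so refills the cycle, was 25.3, 22.1, 24.8 and 24.6 FPKM in CON-pre and 16.2, 16.1, 15.1 and 15.8 FPKM in HFD-pre. After exercise it was 19.3, 26.9, 18.6 and 21.6 FPKM in CON-post and 13.8, 14.9, 17.9 and 16.0 FPKM in HFD-post. Each HFD library was below every CON library of the same exercise state. The share of all genes that were lower without overlap was not counted, for Pcx or for the genes below. Pcx fell in HFD-pre against CON-pre (log2 fold change -0.60, SE 0.10, adjusted p = 0.0138) and with diet pooled (-0.52, SE 0.072, adjusted p = 0.00102). The first call was lost in 2 of 26 alternatives, with the highest adjusted p of 0.0632 without CON-pre replicate 1, and the second held in 25 of 25.

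Slc25a1, the carrier that exports citrate from mitochondria, was 4.09, 4.36, 4.17 and 5.48 FPKM in CON-pre and 2.45, 2.11, 0.876 and 2.35 FPKM in HFD-pre. It was 5.12, 3.08, 2.46 and 2.84 FPKM in CON-post and 1.18, 2.56, 1.69 and 2.26 FPKM in HFD-post. The groups did not overlap before exercise and overlapped by 1 HFD-post library after it. Slc25a1 fell with diet pooled (log2 fold change -0.88, SE 0.17, adjusted p = 0.0190, called in 25 of 25 alternatives), and in HFD-pre against CON-pre it had a log2 fold change of -1.09 (SE 0.25, adjusted p = 0.0849).

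Acly, the cytosolic enzyme that splits the exported citrate to acetyl-CoA, was 7.71, 5.81, 5.61 and 5.20 FPKM in CON-pre and 3.77, 2.69, 3.20 and 3.42 FPKM in HFD-pre, and 7.55, 4.61, 4.53 and 3.42 FPKM in CON-post and 3.68, 3.89, 3.37 and 3.99 FPKM in HFD-post. The diets did not overlap before exercise and overlapped after it. Acly fell with diet pooled (log2 fold change -0.57, SE 0.12, adjusted p = 0.0320), but this call was kept in 12 of 25 alternatives, with an adjusted p of up to 0.0772 without HFD-pre replicate 2. Acly, Slc25a1 and Pcx are also used in adipocytes for fatty acid synthesis. The sum of 7 adipocyte markers was 372 to 476 FPKM in CON-pre and 321 to 415 FPKM in HFD-pre, and 375 to 563 FPKM in CON-post and 339 to 659 FPKM in HFD-post. Most of this sum was Fabp4 (mean 276 FPKM in CON-pre and 297 FPKM in HFD-pre). Cfd, the adipocyte protease adipsin, was 83.1 to 140 FPKM in CON-pre and 17.7 to 37.5 FPKM in HFD-pre, and 71.5 to 141 FPKM in CON-post and 23.4 to 47.0 FPKM in HFD-post, so it was lower with HFD without overlap, as Pcx was. Lep, the leptin gene, was 0.127 to 1.07 FPKM in CON-pre and 2.83 to 6.74 FPKM in HFD-pre, and 0.433 to 0.957 FPKM in CON-post and 3.14 to 17.8 FPKM in HFD-post. Retn had a mean of 12.9 FPKM in CON-pre and 8.05 FPKM in HFD-pre with overlapping ranges, and Adipoq of 17.4 and 18.3 FPKM. The part of the adipocyte genes in the results for Pcx, Slc25a1 and Acly was not tested.

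With exercise, 1 of 30 further genes rose and 0 fell in HFD-post against HFD-pre, where 0.542% of all genes tested were called, and pooled over diets, where 3.86% were. In CON-post against CON-pre 0 of 30 were called, where 1.11% of all genes were, and 2 of 30 reached an unadjusted p under 0.05, which 11.1% of all genes reached. The gene called was Idh1, the cytosolic NADP-dependent isocitrate dehydrogenase. It was 8.13, 7.44, 8.67 and 8.41 FPKM in CON-pre and 11.1, 10.6, 8.81 and 10.5 FPKM in CON-post, and 7.90, 6.15, 7.30 and 7.25 FPKM in HFD-pre and 9.89, 10.96, 9.81 and 10.05 FPKM in HFD-post. The post-exercise libraries were above all pre-exercise libraries in both diets. The share of all genes for which this was so was not counted. Idh1 rose in HFD mice (log2 fold change 0.48, SE 0.087, adjusted p = 0.0173, called in 23 of 26 alternatives with an adjusted p of up to 0.0808 without HFD-post replicate 2) and pooled over diets (0.40, SE 0.061, adjusted p = 0.00120, called in 25 of 25). In CON mice its log2 fold change was 0.31 (SE 0.087, adjusted p = 0.120), and the interaction was 0.18 (SE 0.12, adjusted p = 1.00), so the 2 diets were not shown to differ. In the same libraries the sum of 3 endothelial markers was 33.3 to 41.0 FPKM in CON-pre and 39.8 to 50.7 FPKM in CON-post, and 37.5 to 44.6 FPKM in HFD-pre and 41.3 to 45.2 FPKM in HFD-post. Of these, Pecam1 was 14.9 to 17.8 FPKM in CON-pre and 19.6 to 21.8 FPKM in CON-post, and 14.9 to 18.6 FPKM in HFD-pre and 20.8 to 22.6 FPKM in HFD-post, without overlap in either diet. The other two had a lower mean after exercise in HFD mice, with values of 17.4 FPKM in HFD-pre and 15.9 FPKM in HFD-post for Cdh5 and of 7.31 and 5.85 FPKM for Kdr, and their ranges overlapped in both diets. The median adipocyte sum was 428 FPKM in CON-pre and 538 FPKM in CON-post, and 371 FPKM in HFD-pre and 522 FPKM in HFD-post, with overlapping ranges. The part of these markers in the result for Idh1 was not tested.

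**Figure D4:**
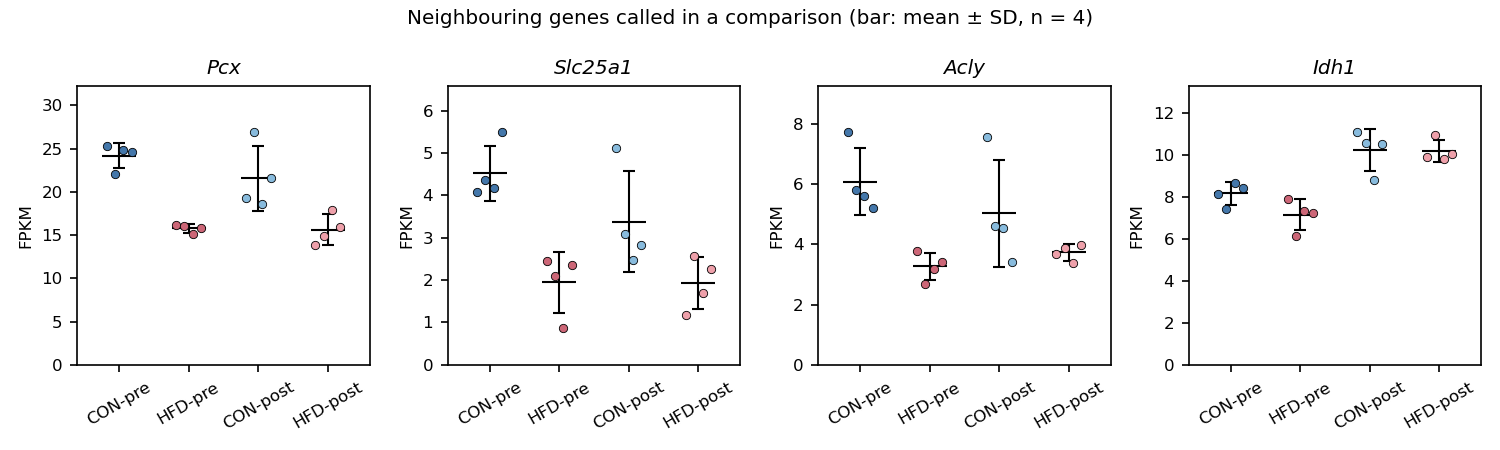
FPKM of Pcx, Slc25a1, Acly and Idh1 (vertical axes starting at 0) in each library, with 4 libraries per group and bars for the group mean and SD. Pcx is lower in HFD than in CON in both exercise states, and Idh1 is higher after exercise in both diets.

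The mitochondrial NADP-dependent isocitrate dehydrogenase Idh2 had the highest log2 fold change of the second list in CON-post against CON-pre (0.44, SE 0.24, adjusted p = 0.522), and Slc25a1 had the lowest (-0.41, SE 0.25, adjusted p = 0.576). It varied more than any member within a group, from 54.6, 58.5, 69.0 and 93.9 FPKM in CON-pre to 115, 52.4, 109 and 106 FPKM in CON-post. The library with the lowest Idh2 in CON-post, replicate 2, also had the lowest slow-fibre sum of that group (179 FPKM), and the library with the highest Idh2 in CON-pre, replicate 4, had the highest slow-fibre sum of that group (695 FPKM). In HFD-post the order differed, since replicate 4 had the lowest slow-fibre sum (182 FPKM) but the second highest Idh2 (106 FPKM), and replicate 2 had the lowest Idh2 (74.1 FPKM) with a slow-fibre sum of 271 FPKM. The part of the slow-fibre genes in this result was not tested. In HFD-post against CON-post the highest was the dicarboxylate carrier Slc25a10 (0.26, SE 0.17) and the lowest Slc25a1 (-0.67, SE 0.25, adjusted p = 0.583). In the interaction, 0 of 30 genes were called by limma and 1 of 30, Slc25a10, reached an unadjusted p under 0.05 (0.54, SE 0.24, adjusted p = 1.00), which 3.16% of all genes reached, while the lowest value was that of the succinate dehydrogenase subunit Sdhb (-0.17, SE 0.11).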

How the data were processed

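RNA-seq of quadriceps was analysed from the FPKM that the authors deposited. The authors prepared stranded mRNA libraries and trimmed the reads. Per the labels and the Methods, reads were checked with FastQC, aligned to mm9 with TopHat and quantified with Cufflinks, with versions not given in the sources used here. FPKM correct for the length of a transcript and the size of a library and carry no counts, so no count model was used and the precision of a single value is not known. Relative depth came from genes of at most 0.5 FPKM.

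The table had 24487 entries. Those with a date in place of a name (27, or 0.0771% of all FPKM) were not used, and entries with the same symbol (260 symbols, 0 of them members) were summed. Columns of sample values not used numbered 0. The 11256 genes averaging 0.5 FPKM or more entered 1 limma fit (limma 3.58.1, R 4.3.3) of log2(FPKM + 0.5) over 16 libraries in 4 groups, with a trended prior variance, and p-values were adjusted over all genes tested (Benjamini-Hochberg), with calls at an adjusted p under 0.05. The added 0.5 shrinks the fold change of low genes. The 7 comparisons were diet within each exercise state, exercise within each diet, both effects pooled, and their interaction. The limma p-values set a difference against the spread between libraries within groups, moderated over all genes. For ratios, exact permutation tests (two-sided) were run in scipy 1.17.1. Tables used pandas 2.3.3 and numpy 2.4.6 and figures matplotlib 3.10.9, in Python 3.11.15. Of the code, the limma fit was tested on simulated data, with log2 changes larger than those of any member.

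The members, the second list and the markers were chosen with earlier results of these data known. Genes named are the 9 members, the genes of the second list that were called or, where none was called, those with the highest and lowest log2 fold change in a comparison, and the 5 genes most like the members' mean. Mdh1, Slc25a11 and Dlat, and the genes given as following the members' mean less closely, were added after their values were seen. Alternatives changed the pseudocount (0.1 or 1), the filter (none, or 1 FPKM on average), the scaling (quantile, median-of-ratios or upper-quartile), the libraries fitted (the groups compared, or all but 1), the variance trend, the threshold and the use of a replicate block. Leaving out libraries in the correlations was added after seeing the data. Groups share replicate numbers, but residuals of same-numbered samples did not correlate (median r -0.022 over 24 pairs, 5 of them over 0.1), so the main fit has no block. Promoter windows of GRCm38.p6 were used for sequences only.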

Additional observations from a re-analysis of the deposited data

Results flagged for a closer look

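Of 52 groups of 4 libraries (each member and each subunit ratio in each group), 4 had 1 library far from the other 3, where chance gives about 1 in 20. Suclg1 was 149 FPKM in HFD-post replicate 2, and the other HFD-post libraries were between 144 and 145 FPKM. Mdh2 was 417 FPKM in HFD-pre replicate 1, and the other HFD-pre libraries were between 403 and 405 FPKM. In both of these the other 3 libraries were unusually close together and the outlying value was within the range of the other groups. The ratio of Idh3a to Idh3g was 1.68 in HFD-pre replicate 4, and the other HFD-pre libraries were between 1.22 and 1.26. The ratio of Sucla2 to Suclg1 was 1.41 in HFD-pre replicate 2, and the other HFD-pre libraries were between 1.26 and 1.29.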

How the results depend on the processing

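No member was called in any comparison under the 25 or 26 alternatives run for each (0 of 1611 values, lowest adjusted p 0.0674), and 57 of these values changed sign. The FPKM scale and 4 libraries per group limit what can be seen. The 95% intervals give the range of differences these libraries allow for each member, some of them leave out 0 although no adjusted p passed, and depth per gene is not known. The reason a sign changed was not tested.

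At an unadjusted p under 0.05 the members counted 2 in HFD-pre against CON-pre, 1 in CON-post against CON-pre, 2 with exercise pooled and 2 with diet pooled, and the second list counted 3, 2, 5 and 3 in the same order, 2 in HFD-post against HFD-pre, 2 in HFD-post against CON-post and 1 in the interaction. All genes counted 929, 1253, 2085 and 1174 in the same order, 1320 in HFD-post against HFD-pre, 708 in HFD-post against CON-post and 356 in the interaction. At an adjusted p under 0.1 all genes counted 62, 208, 779 and 178 in the same order, 93 in HFD-post against HFD-pre and 30 in HFD-post against CON-post, and the second list 3 in HFD-pre against CON-pre. With only the groups compared, all genes counted 72 in CON-post against CON-pre and 2 in HFD-post against CON-post, and the second list 0 in HFD-post against HFD-pre. Without a filter all genes counted 37 in HFD-post against HFD-pre. With the replicate block, whose pairing the data did not bear out, the second list counted 2 in HFD-pre against CON-pre, and no other count moved by over 1.5 times.

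Without 1 library, all genes called ranged from 21 to 44 in HFD-pre against CON-pre, 21 to 78 in HFD-post against HFD-pre, 5 to 16 in HFD-post against CON-post, 246 to 566 with exercise pooled and 0 to 1 in the interaction, and the second list from 0 to 2, 0 to 1 and, with exercise pooled, 1 to 2.

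Log2 fold changes that changed sign with scaling were as follows. Upper-quartile scaling gave -0.034 for Idh3b, -0.058 for Idh3g and -0.032 for Sucla2 in HFD-post against HFD-pre, -0.0095 for Sucla2 and -0.026 for Mdh2 with exercise pooled, -0.0096 for Suclg1 in CON-post against CON-pre and -0.011 for Fh1 in HFD-post against CON-post. Median-of-ratios scaling gave -0.010 for Idh3b, -0.034 for Idh3g and -0.0086 for Sucla2 in HFD-post against HFD-pre and -0.0030 for Fh1 in HFD-post against CON-post. Quantile normalization gave -0.031 for Idh3b, -0.050 for Idh3g, -0.0087 for Ogdh and -0.049 for Sucla2 in HFD-post against HFD-pre, -0.035 for Idh3a, -0.024 for Sucla2 and -0.055 for Mdh2 in CON-post against CON-pre, and -0.0087 for Idh3b, -0.036 for Sucla2 and -0.082 for Mdh2 with exercise pooled.

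Those whose sign changed without 1 library had these ranges. In CON-post against CON-pre Cs was -0.029 to 0.013, Idh3a -0.0043 to 0.086 and Suclg1 -0.046 to 0.073. In HFD-post against HFD-pre Cs was -0.070 to 0.0027, Idh3a -0.089 to 0.0039, Idh3b -0.0088 to 0.064, Idh3g -0.049 to 0.048 and Mdh2 -0.048 to 0.00074. In HFD-post against CON-post Idh3a was -0.0026 to 0.088, Fh1 -0.040 to 0.023 and Mdh2 -0.0042 to 0.069, and in HFD-pre against CON-pre Idh3g was -0.019 to 0.078. With exercise pooled Idh3a was -0.028 to 0.018 and Mdh2 -0.0094 to 0.045, and in the interaction Cs was -0.058 to 0.015, Sucla2 -0.065 to 0.043 and Suclg1 -0.0062 to 0.12. Log2 ratios ranged from -0.051 to 0.023 for Sucla2 to Suclg1 and -0.027 to 0.12 for Idh3b to Idh3g in HFD-pre against CON-pre, -0.036 to 0.11 for Idh3b to Idh3g and -0.10 to 0.053 for Idh3a to Idh3g in HFD-post against HFD-pre, and, for Idh3a to Idh3b, -0.095 to 0.00013 in CON-post against CON-pre and -0.032 to 0.064 in HFD-post against CON-post. The median r of the Idh3g pairs ranged from -0.28 to 0.076.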
